A study of Homo sapiens with 12 samples.

Results

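The comparison described here asks which genes lose and which gain expression when a transcriptional repressor is brought to the LTR5HS class of endogenous retroviral long terminal repeats. It covers 6 of the 12 RNA-seq libraries of the series, all from NCCIT, an established human embryonal carcinoma line, and 15520 of the 26641 genes of the count table, which is every gene that passed a filter on low counts. All 6 libraries came from stable lines carrying a doxycycline-inducible dCas9-KRAB fusion and an array of guide RNAs, selected with puromycin for the fusion and G418 for the array, and all were treated with doxycycline for 4 days before extraction. In the recruitment line (LTR5HS Sp, 2 libraries) the LTR5HS guides carried the scaffold of Streptococcus pyogenes Cas9, with which this dCas9 forms a complex. One control line (LTR5HS Sa, 2 libraries) carried the same guides on the Staphylococcus aureus scaffold, which this dCas9 does not bind, and the other (nontarget Sp, 2 libraries) carried guides without a genomic target on the S. pyogenes scaffold. The 4 control libraries were pooled as the control group. The sources do not call the lines clones, and each arm is a single line sampled in 2 replicates, so the p-values below measure the spread between these libraries only. No animals or donors are involved.

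The 3 arms were sequenced unequally. Total counts were 18097318 and 15428456 in the recruitment libraries, 18067656 and 13601701 in LTR5HS Sa, and 24840708 and 69797411 in nontarget Sp, so that the second nontarget library held 3.86 times the median of the other 5 dCas9-KRAB libraries. A floor of 3 counts corresponded to 0.044 CPM (a gene's counts per 1e6 counts of the library) in that library and to 0.118 to 0.225 CPM in the others. This floor covers counting error only. Replicates of an arm correlated at r = 0.989 to 0.993 across the 15520 genes, and genes are not independent replicates. The 10 markers listed for the embryonal carcinoma state, among them POU5F1, NANOG, SOX2 and LIN28A, were all tested and none passed the test in either direction. Their summed level was 4750 to 5000 CPM with recruitment and 4990 to 6190 CPM in control.

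KRAB is the repressor domain of a large family of zinc finger proteins. It binds TRIM28 (KAP1), which brings the methyltransferase SETDB1 and other factors and thereby deposits H3K9 trimethylation, a mark of silent chromatin that can spread from the site of recruitment. LTR5HS elements are the youngest long terminal repeats of the HERVK (HML-2) retrovirus, confined to apes and humans, and are active in the early embryo and in embryonal carcinoma cells. Guided recruitment of KRAB to a regulatory element is the principle of CRISPR interference.

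The 12 LTR5HS guides were matched to the hg38 reference, requiring all 16 bases and an adjacent NGG. They had 2938 matches, which formed 950 loci when matches within 1 kb were joined. At 648 loci at least 2 distinct guides matched and at 410 at least 4, with 7 the largest number at any locus. The matched loci are called guide-matched loci below, because their repeat class was not annotated here. The guides contributed unequally, from 726 matches of LTR5HS-8 and 525 of LTR5HS-7 to 21 of LTR5HS-5 and 2 of LTR5HS-12. None of the 12 nontarget guides had an exact match, either over the whole guide or over its 16 bases next to the NGG.

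A pair of loci shows the sequences that the fusion was sent to. The first lies in an intron of ARMT1 on chromosome 6 and holds the combination of commonly matching guides. The capitals mark the NGG next to the target, and the sites are given on the strand of the match:
LTR5HS-1, chr6:151455361-151455379, minus strand: tactaagggaactcagAGG
LTR5HS-2, chr6:151455589-151455607, minus strand: aaaaccgccttagggcTGG
LTR5HS-9, chr6:151455652-151455670, plus strand: gacattccattgcccaGGG
LTR5HS-8, chr6:151455741-151455759, minus strand: taaagggtctgtgctgAGG
LTR5HS-4, chr6:151455754-151455772, minus strand: agcccgacacccgtaaAGG
LTR5HS-7, chr6:151455834-151455852, plus strand: aaccttggacaataccTGG

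The same 6 guides matched upstream of NFKB2 on chromosome 10. The second locus lies at the start of PCAT14, a long noncoding RNA on chromosome 22 that contains HERVK sequence, and holds rarer guides beside common ones. PCAT14 was the single tested gene with a guide match in the window from 250 bases before to 50 bases after its start site:
LTR5HS-8, chr22:23536480-23536498, plus strand: taaagggtctgtgctgAGG
LTR5HS-9, chr22:23536567-23536585, minus strand: gacattccattgcccaGGG
LTR5HS-3, chr22:23536630-23536648, plus strand: aaaactgccttagggcTGG
LTR5HS-6, chr22:23536820-23536838, minus strand: taccatctcggagaggGGG
LTR5HS-10, chr22:23536922-23536940, minus strand: atagagaaagaaaagtGGG

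With recruitment, 301 genes were lower than in control and 129 were higher at a threshold of 0.05 on the p of edgeR's quasi-likelihood test, adjusted over all genes by the method of Benjamini and Hochberg. These are 1.94% and 0.831% of the genes tested. The median log2 fold change of all tested genes was 0.001. Lower genes differed by a median of 1.47 on the log2 scale, and 219 of them changed more than 2-fold, 97 more than 4-fold and 47 more than 8-fold. Higher genes differed by a median of 1.63, with 96, 52 and 32 past the same folds.

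Genes in the 2 directions differed in their starting level. The median lower gene went from 22.8 CPM in control to 7.54 CPM with recruitment, close to the median control level of all tested genes, 21.5 CPM. The median higher gene went from 2.89 to 10.8 CPM. In control, 45 of the 129 higher genes (34.9%) were under 1 CPM, against 8 of the 301 lower genes (2.66%) and 9.47% of all tested genes. The filter on low counts keeps a gene that is expressed with recruitment alone. Such a gene can be called higher but has little room to be called lower. The difference in starting level is thus at least partly set by the filter and the direction of the call. Levels in CPM are not corrected for gene length and are compared only within a gene.

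**Figure D1:**
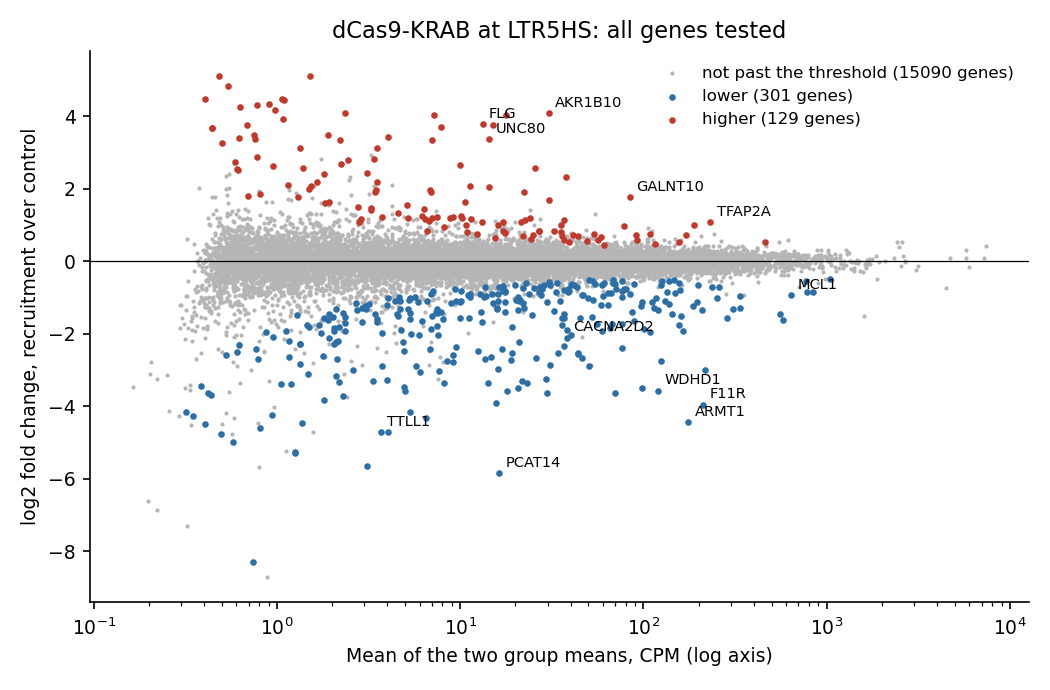
Each point is 1 of the 15520 tested genes, with the mean of the recruitment and control means in CPM on a log axis and the log2 fold change of recruitment over control on the vertical axis. Lower genes (blue, 301) extend over the range of levels, whereas many higher genes (red, 129) with large fold changes sit at low levels.

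The depth of the second nontarget library moved the calls little. When its reads were thinned to the median depth of the other 5 libraries, 290 genes were lower and 125 higher, and 288 and 123 of these were among the 301 and 129. Without the library, which also removes a replicate, 207 were lower and 78 higher. No gene was called in the opposite direction under any of the settings tried. Leaving out a recruitment library had a larger effect, with 173 lower and 61 higher genes without replicate 1 and 152 lower and 62 higher without replicate 2.

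The genes with the smallest adjusted p were all lower, and most of them contain a guide-matched locus in an intron near their own start. ARMT1, a protein carboxyl methyltransferase, had 17.8 and 13.0 CPM with recruitment, 283 and 337 CPM in LTR5HS Sa, and 393 and 330 CPM in nontarget Sp. WDHD1, a replication factor that binds DNA polymerase alpha, had 20.2 and 17 CPM with recruitment, 179 and 233 CPM in LTR5HS Sa, and 234 and 238 CPM in nontarget Sp. Both recruitment libraries lay far below all 4 controls for both genes, and the log2 fold changes were −4.44 ± 0.20 (SE) and −3.57 ± 0.17, each with an edgeR adjusted p of 1.15e-05. F11R, which encodes junctional adhesion molecule A, had 31.0 and 20.1 CPM with recruitment, 335 and 407 CPM in LTR5HS Sa, and 427 and 426 CPM in nontarget Sp. It fell by 3.96 ± 0.21 on the log2 scale (edgeR adjusted p = 1.65e-05). SDHC, a membrane subunit of succinate dehydrogenase, had 23.5 and 25.7 CPM with recruitment, 124 and 124 CPM in LTR5HS Sa, and 136 and 132 CPM in nontarget Sp. The groups did not overlap, and the spread within each was small beside a log2 fold change of −2.39 ± 0.12 (edgeR adjusted p = 1.2e-05).

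In BARD1, the partner of BRCA1 in DNA repair, the locus also lay in an intron. Its levels were 12.8 and 12.2 CPM with recruitment, 69.0 and 88.3 CPM in LTR5HS Sa, and 84.5 and 76.8 CPM in nontarget Sp. PROM1, the membrane glycoprotein CD133, had 11 and 9.92 CPM with recruitment, 103 and 116 CPM in LTR5HS Sa, and 151 and 150 CPM in nontarget Sp. For both genes the recruitment libraries lay below every control library. CEBPZ, a CCAAT-binding protein, had 53.9 and 42.7 CPM with recruitment, 302 and 415 CPM in LTR5HS Sa, and 409 and 416 CPM in nontarget Sp. Its first LTR5HS Sa library stood below the other 3 controls and was still several times above recruitment. The log2 fold changes of BARD1, PROM1 and CEBPZ were −2.67, −3.63 and −2.99.

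Other leading genes had the locus outside the gene or before its canonical start site. ABCB8, a transporter of the inner mitochondrial membrane whose nearest locus lay just upstream (chr7:151027587-151027946), had 4.28 and 3.72 CPM with recruitment, 40.8 and 44.5 CPM in LTR5HS Sa, and 33.5 and 40.1 CPM in nontarget Sp. All controls were well above recruitment, with a log2 fold change of −3.30 ± 0.18 (edgeR adjusted p = 2.07e-05). The asparaginase gene ASRGL1 had 44.2 and 44.6 CPM against 157 to 193 CPM in control. VSIG10, an immunoglobulin-domain membrane protein whose locus lay before the canonical start but within the annotated span of the gene, had 7.75 and 6.20 CPM against 40.2 to 49.7 CPM. The remaining genes of the 12 with the smallest adjusted p, NRBP2 and TMEM64, had log2 fold changes of −3.35 and −2.52. All 12 remained past the threshold in every setting tried, which describes genes that were chosen by the adjusted p in these same libraries.

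**Figure D2:**
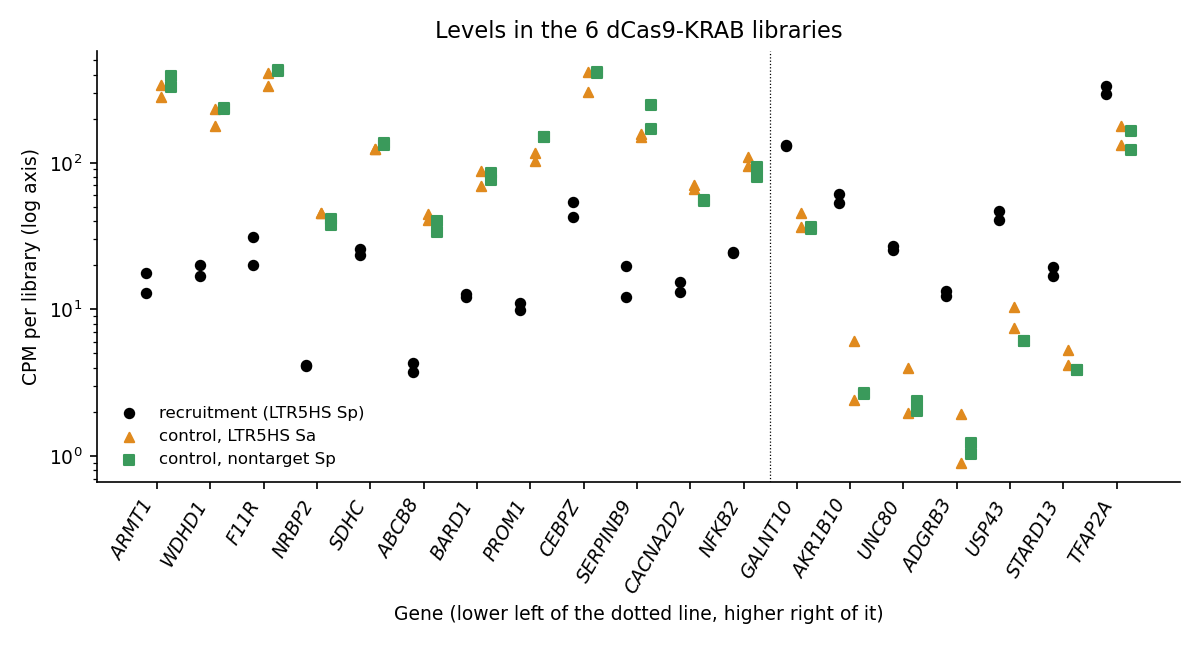
CPM on a log axis in each of the 6 dCas9-KRAB libraries for genes named in the text, with black circles for recruitment, triangles for LTR5HS Sa and squares for nontarget Sp. Left of the dotted line both recruitment circles lie below the 4 control libraries, and right of it both lie above them.

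Some genes were close to absent with recruitment. RARRES3, a phospholipid-metabolising retinoid response gene, had 0 counts in both recruitment libraries and 0.899 to 2.01 CPM in the controls. Against a floor of 3 counts per library, which averaged 0.179 CPM, it was at least 8.23-fold lower. PCAT14, at whose start the locus printed above lies, had 1.03 and 0 CPM with recruitment, 29.5 and 19.9 CPM in LTR5HS Sa, and 45.8 and 33.5 CPM in nontarget Sp. The recruitment libraries were near 0 in each case, and the adjusted p of PCAT14 was 0.000726 in edgeR's test. TRIM61, a member of the TRIM ubiquitin ligase family, had 0.0542 and 0.0652 CPM, which is a single count per library, against 1.87 to 3.08 CPM in control (edgeR adjusted p = 0.000393).

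The share of genes that were lower declined with the distance between the start site and the nearest locus with at least 2 guides. A position was found for 14952 tested genes (96.3%), among them 291 lower and 123 higher genes. Of the genes within 5 kb of a locus, 57 of 81 were lower (70.4%). The share was 37.5% of 192 genes at 5 to 20 kb, 20.1% of 328 at 20 to 50 kb, 6.72% of 476 at 50 to 100 kb and 2.04% of 783 at 100 to 200 kb. Beyond 1 Mb it was 0.274% of 9112 genes. The median log2 fold change of all genes in a bin, called or not, followed the same order, from −1.638 within 5 kb through −0.633 and −0.358 to −0.131 at 50 to 100 kb.

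Within 50 kb lay 195 of the 291 lower genes, or 67.0% (Wilson 95% confidence interval 61.4 to 72.2%), and 601 of all 14952 genes, or 4.02%. None of the 123 higher genes did, for which the interval reaches to 3.03%. The nearest higher genes were FLG, KLKB1, SCNN1A, PIWIL3 and LINC01548, all between 100 and 200 kb. The median distance was 25 kb for lower genes, 2190 kb for higher genes and 1510 kb for all tested genes. Neighbouring genes share a locus, so genes are not independent points in these shares.

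**Figure D3:**
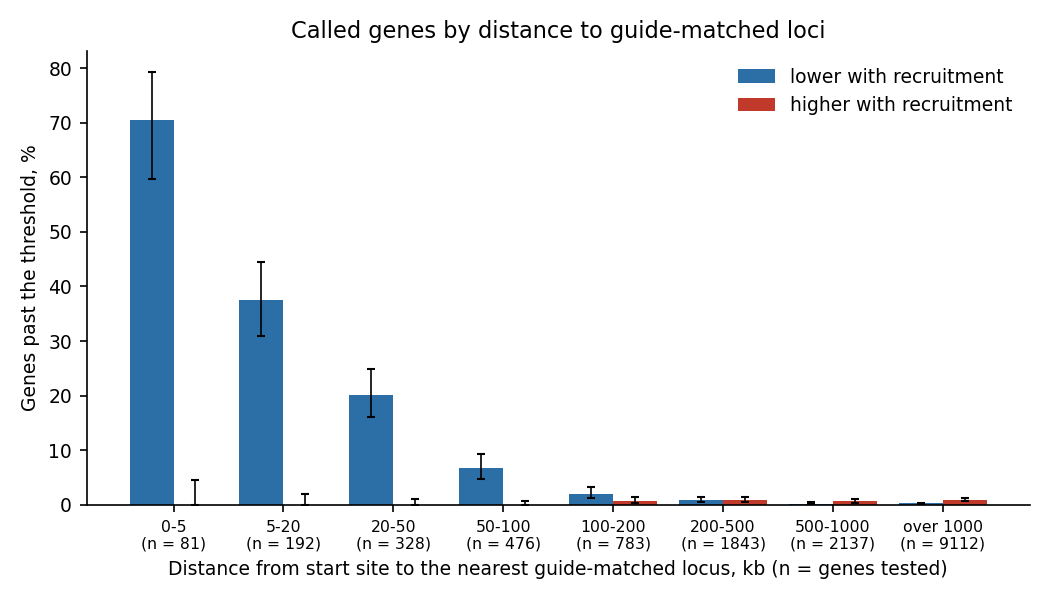
Percentage of tested genes called lower (blue) or higher (red) by the distance in kb from start site to the nearest guide-matched locus, with Wilson 95% confidence intervals as bars and the number of genes under each bin. The blue bars decline from 70.4% within 5 kb to 0.274% beyond 1000 kb, while no red bar rises above 0 within 100 kb.

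More guides at the locus went with a larger share of lower genes at a given distance. Within 20 kb the share was 10.3% of 107 genes where the nearest locus had 1 guide match, 31.5% of 89 genes with 2 or 3 guides and 55.0% of 180 genes with 4 to 7, and the Wilson intervals of the 3 classes did not overlap. At 20 to 50 kb the shares were 5.16%, 12.9% and 23.1%. The number of guides moves with the sequence of the element, and the part of each in these shares cannot be told apart here.

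Each gene was assigned to its nearest locus. Of the 300 loci that were the nearest one of a tested gene within 50 kb, 149 (49.7%) had at least 1 lower gene among these. Counting up to 200 kb, the gene nearest to a locus was lower in 169 of 482 cases (35.1%), the second nearest in 16.2%, the third in 14.3% and the fifth in 12.8%. A gene could be counted at more than 1 locus, so a gene of a later rank may be lower beside another, closer locus. By distance to the nearest locus, 2.04% of genes at 100 to 200 kb were lower. The rank shares thus do not measure the reach of a single locus. At the 400 loci with 2 or more genes in that range, both the nearest and second nearest gene were lower at 44, only the nearest at 110, only the second nearest at 21 and neither at 225. Thus at 21 loci a farther gene was called and the nearest one was not, which a p past or short of the threshold does not show to be a difference between the genes. The farther gene at such a locus may also have another locus nearer to it.

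Loci inside the gene itself, anywhere between its annotated ends, had the largest share. Within 50 kb of the start site, 60 of 110 genes with the locus in their own body were lower (54.5%), against 104 of 349 with the locus upstream (29.8%) and 31 of 142 with the locus beyond the far end (21.8%). The Wilson intervals of the first group, 45.2 to 63.5%, and of the upstream group, 25.2 to 34.8%, did not overlap. These shares pool distances. Within 20 kb the 2 groups had 57.5% of 73 (46.1 to 68.2%) and 46.1% of 167 (38.7 to 53.7%), intervals that overlap. At 20 to 50 kb they had 48.6% of 37 (33.4 to 64.1%) and 14.8% of 182 (10.4 to 20.7%), which do not. Among genes at 50 CPM or more in control, 21 of 30 with the locus in their own body were lower (70.0%) and 52 of 164 with it outside (31.7%). Under 10 CPM the shares were closer, with 13 of 41 (31.7%) and 47 of 183 (25.7%). Of the 60 lower genes, 50 had the locus past the canonical start site and 10 before it.

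The gene family with the most lower members was that with the symbols of zinc finger transcription factors, many of which carry a KRAB domain of their own and bind endogenous retroviruses. Of 588 tested members 48 were lower (8.16%, against 1.94% of all genes) and 0 were higher. Of these 48, 45 are protein-coding genes, and the others are the antisense transcript ZNF528-AS1 and the pseudogenes ZNF137P and ZNF702P. In all, 40 of the 48 lay on chromosome 19, which holds the large clusters of these genes. The family also lay closer to guide-matched loci, with 13.5% of its members within 50 kb against 3.63% of other tested genes. Within 50 kb, 34 of 79 zinc finger genes (43.0%, Wilson interval 32.7 to 54.0%) and 161 of 522 other genes (30.8%, 27.0 to 34.9%) were lower, intervals that overlap. At 50 to 500 kb 13 of 241 (5.39%, 3.18 to 9.01%) and 53 of 2861 (1.85%, 1.42 to 2.42%) were, intervals that do not overlap. Of the 13, however, ZNF766, ZNF83, ZNF600, ZNF28, ZNF468, ZNF320, ZNF888, ZNF816 and ZNF702P (61.2 to 273 kb) lay in 1 run on chromosome 19. They are not independent points, and the intervals do not show an excess over the family as a whole. Beyond 500 kb 1 of 264 zinc finger genes was lower. Without the second nontarget library 25 of the family were lower. Zinc finger genes of a cluster are close copies of each other, and reads that fit several copies may have been split or dropped in the counting.

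Among them ZNF813 had 0.705 and 0.391 CPM with recruitment, 9.95 and 9.07 CPM in LTR5HS Sa, and 10.9 and 10.6 CPM in nontarget Sp. The groups did not overlap, with a log2 fold change of −4.17 ± 0.28 (edgeR adjusted p = 4.9e-05). ZNF397 on chromosome 18 was the lower member beyond 500 kb. It had 4.72 and 6.78 CPM with recruitment against 28.9 to 35.8 CPM in control (log2 fold change −2.52 ± 0.19), with its nearest locus more than 3 Mb away.

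Lower genes stood next to each other along the chromosomes. In runs of neighbouring tested genes whose start sites lay at most 500 kb apart, 126 lower genes formed 41 runs, whereas 14 higher genes formed 6 runs of at most 3. The longest run held 20 genes over 775 kb of chromosome 19 (start sites from 52269587 to 53044740), namely 19 with zinc finger symbols from ZNF766 to ZNF702P, 16 of them protein-coding, and the envelope gene ERVV-2 of another retrovirus, around 5 nearest loci. Its deepest member was ZNF610, with 0.325 and 0.130 CPM with recruitment and 3.0 to 3.68 CPM in control (log2 fold change −3.83 ± 0.37). Its shallowest was ZNF320, with 21.2 and 20.2 CPM against 29.8 to 37.0 CPM (−0.71 ± 0.13). Of the 20 calls, 12 were kept without the second nontarget library, 14 without the first recruitment library and 4 without the second. On either side of the run, PPP2R1A, the scaffold subunit of protein phosphatase 2A, and ZNF160 had log2 fold changes of −0.09 and −0.20 and did not pass the test.

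**Figure D4:**
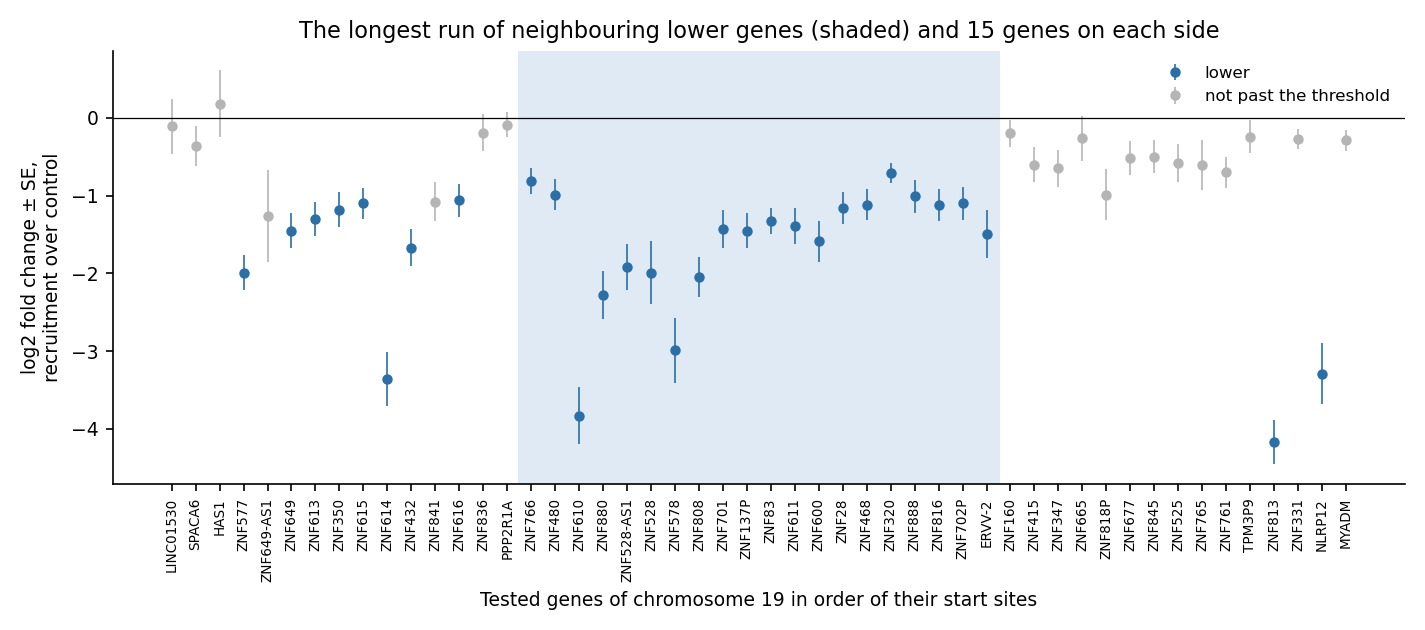
Log2 fold change with its standard error for the 20 genes of the longest run (shaded) and 15 tested genes on each side, in the order of their start sites on chromosome 19. Every gene in the shaded block lies below 0, from −0.71 for ZNF320 to −3.83 for ZNF610, and further lower genes such as ZNF614 and ZNF813 lie outside it.

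Close by on the same chromosome, ZNF649, ZNF613, ZNF350, ZNF615, ZNF614 and ZNF432 formed a run of 6 over 144 kb, led by ZNF614 at 2.06 and 0.783 CPM with recruitment and 12.4 to 18.7 CPM in control. Without the first recruitment library 1 of these 6 remained past the threshold, and without the second 2 did. A run of 4 farther away joined LINC01535, HKR1, ZNF527 and ZNF569. HKR1, a KRAB zinc finger gene, had 15.6 and 17.4 CPM with recruitment against 49.4 to 63.0 CPM in control (log2 fold change −1.76 ± 0.14, edgeR adjusted p = 0.000117).

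On chromosome 1 a single locus was nearest to 6 lower genes of varied function over 50.4 kb, the cyclin CCNL2, the mitochondrial ribosomal protein MRPL20, ANKRD65, TMEM88B, the extracellular matrix protein VWA1 and ATAD3C. VWA1 had 13.6 and 11.9 CPM with recruitment, 77.2 and 112 CPM in LTR5HS Sa, and 49.8 and 63.1 CPM in nontarget Sp, whereas CCNL2 had 103 and 121 CPM against 155 to 174 CPM. The groups did not overlap for either gene, but the sizes differed, with log2 fold changes of −2.56 ± 0.31 and −0.55 ± 0.11. Of these 6 calls 3 were kept without the second nontarget library, and 2 and 1 without the first and the second recruitment library. Runs of 3 included CEBPZOS, CEBPZ and NDUFAF7 on chromosome 2 and ATG9B, ABCB8 and ASIC3 on chromosome 7.

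The noncoding host gene SNHG1 on chromosome 11 and 6 small nucleolar RNAs in its introns (SNORD22, SNORD25, SNORD26, SNORD27, SNORD28 and SNORD30) made up a run of 7. SNHG1 had 123 and 109 CPM with recruitment, 230 and 328 CPM in LTR5HS Sa, and 290 and 347 CPM in nontarget Sp, all controls lying above recruitment (log2 fold change −1.36 ± 0.17, edgeR adjusted p = 0.00173). The small nucleolar RNAs guide modification of ribosomal RNA, and their mature forms are poorly captured in polyadenylated RNA, so reads of the host and of its introns cannot be told apart here. Without the first or without the second recruitment library 4 of the 7 calls were kept. Among 79 cytosolic ribosomal proteins tested, none was lower or higher.

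The alkaline phosphatases, surface markers of pluripotent and germ cell tumour cells, were lower in all 3 genes tested. ALPL, the tissue-nonspecific form, had 58.7 and 76.5 CPM with recruitment, 187 and 180 CPM in LTR5HS Sa, and 152 and 171 CPM in nontarget Sp, with no overlap (log2 fold change −1.35 ± 0.14, edgeR adjusted p = 0.000598). Its nearest locus was 4080 kb away. ALPPL2 had 1.90 and 1.37 CPM against 12.3 to 15.6 CPM, and ALPP had 0.488 and 0.130 CPM against 3.67 to 5.06 CPM. These are near-identical copies next to a shared locus on chromosome 2, and their counts may not be separable.

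Of 12 tested genes listed for naive pluripotency 4 were lower (33.3%, against 1.94% of all genes) and 0 higher, with a median log2 fold change of −0.512. The 4 were ALPPL2, the surface marker SUSD2, the DNA methyltransferase cofactor DNMT3L and NLRP7, an imprinting-related inflammasome gene. All 4 started within 50 kb of a guide-matched locus, from 15.5 kb for NLRP7 to 29.9 kb for SUSD2. Of all 601 tested genes within 50 kb, 195 were lower, and the part of distance in this count was not tested. SUSD2 had 8.62 and 6.52 CPM with recruitment against 13.1 to 16.2 CPM in control. DNMT3L (0.163 and 0.587 CPM against 1.26 to 1.78 CPM) and NLRP7 (0.0542 and 0.0652 CPM against 0.599 to 0.987 CPM) were expressed at low levels throughout. Without the second nontarget library 2 of the 4 calls were kept, SUSD2 not among them, and the NLRP7 call was lost without either recruitment library. DNMT3L was the single lower gene of 10 DNA methylation genes, at an edgeR adjusted p of 0.0496, and its call was lost in 8 settings, among them the thinned second nontarget library and either control alone.

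The study chose 6 genes for deletion of a neighbouring LTR5HS element (CACNA2D2, ALPPL2, NFKB2, SERPINB9, GDPD1 and EPHA7) and detected chimeric transcripts that join an element to a gene at 4 others (SLC4A8, FA2H, TIMM50 and NBPF12). All 10 were lower, but the study drew both lists with these samples known, and they are not independent evidence of the direction. SERPINB9, an inhibitor of granzyme B, had 19.7 and 12.1 CPM with recruitment, 156 and 150 CPM in LTR5HS Sa, and 247 and 170 CPM in nontarget Sp. CACNA2D2, a calcium channel subunit, had 13.2 and 15.4 CPM against 54.6 to 70.3 CPM, and NFKB2, a subunit of NF-kappaB, had 24.4 and 24.7 CPM against 79.7 to 109 CPM. The groups of all 3 were apart. The other chosen genes reached from FA2H, a fatty acid hydroxylase, at −3.91 to NBPF12 at −1.10 on the log2 scale. The call of GDPD1 was lost without the second recruitment library, and that of EPHA7 without the first.

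Lower genes with metabolic, signalling and adhesion functions were spread over many families, mostly with 1 or a few members each. MRPL18, a mitochondrial ribosomal protein, had 32.7 and 31.8 CPM with recruitment, 167 and 227 CPM in LTR5HS Sa, and 224 and 255 CPM in nontarget Sp (log2 fold change −2.76 ± 0.18). It was 1 of 2 lower genes among 79 of its kind (2.53%, near the 1.94% of all genes). The antiapoptotic gene MCL1 had 443 and 437 CPM against 720 to 1000 CPM (−0.93 ± 0.14, edgeR adjusted p = 0.00492) and was the single lower gene of 18 apoptosis genes, a call lost without either recruitment library. SEMA4A, a semaphorin, had 0.921 and 0.261 CPM against 11 to 13 CPM and MMP24, a membrane-type metalloprotease, 4.17 and 2.41 CPM against 33.2 to 42.5 CPM. Recruitment was below every control for each of these genes. The glycolytic enzyme ENO2 fell by 1.25 on the log2 scale as the single member of 23 glycolysis and hypoxia genes.

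Solute carriers, the largest transporter family, had 7 lower and 2 higher of 283 genes, shares close to those of all genes. The mitochondrial carriers SLC25A16 and SLC25A44 had log2 fold changes of −3.35 and −1.39. Of 29 genes with semaphorin and plexin symbols 3 were lower (10.3%, against 1.94% of all genes), SEMA4A, SEMA6A and the antisense transcript SEMA6A-AS1. SEMA6A-AS1 lies within SEMA6A on the other strand, so the reads of these genes may not be separable. Its call was lost in 4 settings, among them the thinned second nontarget library. Lower were also 2 of 13 glutathione transferases (15.4%, GSTP1 and GSTA4) and 2 of 82 respiratory chain subunits (SDHC and NDUFA7, the second lost without the second nontarget library or either recruitment library). The share of respiratory chain subunits, 2.44%, was near the 1.94% of all genes. The 2 lower members among 37 genes with collagen symbols were COL14A1 and COL4A3BP, the second of which encodes a ceramide transfer protein and no collagen.

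For several pathways no gene passed the threshold of edgeR's test in either direction. These were 21 genes of the KRAB silencing machinery, 13 interferon-stimulated genes, 8 genes of double-stranded RNA sensing, 7 genes of MHC class I, 14 p53 targets, 16 stress response genes, 10 heat shock genes, 20 cell cycle genes, 16 genes of cholesterol synthesis, 23 of the WNT pathway and 17 of the NODAL and activin pathway. Of all tested genes 1.94% were lower and 0.831% higher. At these shares a list of this size can hold no call, so the absence of calls does not show a pathway to be unchanged. Over the 31 lists 22 distinct members were lower and 6 higher, and without the second nontarget library 17 and 2.

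Among the higher genes GALNT10, which starts O-linked glycosylation of proteins, had the smallest adjusted p. It had 130 and 132 CPM with recruitment, 45.1 and 36.3 CPM in LTR5HS Sa, and 35.6 and 36.5 CPM in nontarget Sp (log2 fold change 1.77 ± 0.12, edgeR adjusted p = 5e-05). AKR1B10, an aldo-keto reductase that acts on retinal, had 53.1 and 61.7 CPM with recruitment, 6.10 and 2.40 CPM in LTR5HS Sa, and 2.69 and 2.64 CPM in nontarget Sp (4.08 ± 0.30, edgeR adjusted p = 7.87e-05). Both recruitment libraries were above all controls for both genes, and in each the first LTR5HS Sa library was the control nearest to them. Their nearest loci lay 2470 and 4940 kb away.

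UNC80, a subunit of the NALCN sodium leak channel, had 27.0 and 25.3 CPM with recruitment against 1.95 to 3.96 CPM in control, and ADGRB3, an adhesion receptor of neurons, 12.3 and 13.4 CPM against 0.899 to 1.92 CPM. USP43, a deubiquitinase, had 40.9 and 47.2 CPM against 6.04 to 10.4 CPM. STARD13, IGIP and PXYLP1, a phosphatase of proteoglycan synthesis, rose by 2.08, 1.92 and 1.69 on the log2 scale. For all 8 higher genes with the smallest adjusted p the groups did not overlap and the call was kept in every setting tried. They were chosen by the adjusted p in these same libraries, so this describes the chosen genes only.

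The first LTR5HS Sa library was the control nearest to recruitment in 72 of the 129 higher genes (55.8%) and in 112 of the 301 lower genes (37.2%). Leaving this library out, which also removes a replicate, gave 252 lower and 123 higher genes. Of these, 242 and 97 were among the 301 and 129, so the higher calls changed more than their number shows.

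Higher genes of developmental function were few. TFAP2A, a transcription factor of surface ectoderm, trophoblast and germ cells, had 333 and 295 CPM with recruitment, 178 and 133 CPM in LTR5HS Sa, and 166 and 122 CPM in nontarget Sp (log2 fold change 1.07 ± 0.15, edgeR adjusted p = 0.00406). It was the single called gene of 10 germ cell genes, and the call was lost without the first recruitment library. GATA3, a trophoblast transcription factor, had 5.75 and 3.85 CPM against 1.12 to 2.20 CPM and was the single called gene of 4 trophoblast genes tested. Another of the 4 went the other way, with a log2 fold change of −5.24 that did not pass the test. Of all tested genes 0.831% were higher. The summed level of the 10 listed trophoblast markers was 18.2 to 32.1 CPM with recruitment and 11.5 to 23.1 CPM in control, ranges that overlap, and their part in the result was not tested. The GATA3 call was lost without the second nontarget library and without either recruitment library.

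The ligand BMP4 (14.4 and 14.3 CPM against 5.73 to 8.16 CPM) and ID4, a target of BMP signalling (23.4 and 19.4 CPM against 8.57 to 13.7 CPM), were the 2 higher genes among 21 of the BMP and TGF-beta pathway, of which 0 were lower. Neither call was kept without the first or without the second recruitment library, and that of ID4 was lost also without the second nontarget and the first LTR5HS Sa library. In the FGF pathway 1 of 17 genes was higher, the ligand FGF2, and 2 were lower, FGF13 and the feedback inhibitor SPRY4. FOXI3, SOX3 and FOXC1 were higher among 50 SOX and FOX factors, with FOXI3 at 16.8 and 15.4 CPM against 4.09 to 6.65 CPM. ADAMTS8, ADAMTS15 and MMP17 were higher among 38 metalloproteases, and MMP24 was lower. The shares of higher genes in these groups were 9.52%, 5.88%, 6.0% and 7.89%, against 0.831% of all tested genes. The share of lower genes in the FGF pathway was 11.8%, against 1.94% of all. Each share rests on very few genes. The calls of FGF2, FGF13, SPRY4, FOXC1 and ADAMTS15 were lost without the second nontarget library and without the second recruitment library, and that of SOX3 without the latter, whereas FOXI3 and ADAMTS8 kept theirs in every setting tried.

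The runs of 3 higher genes were LINC01024, PURA and IGIP on chromosome 5 and FLG-AS1, HRNR and FLG on chromosome 1, of which FLG and HRNR encode proteins of the skin barrier. FLG-AS1 overlaps FLG and HRNR on the other strand. The library protocol does not mark strand and the strand setting of the counting is not given in the sources used here, so reads of overlapping and antisense pairs such as these cannot be told apart.

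A small number of genes were lower far from any locus with 2 guides. TTLL1, a tubulin glutamylase subunit, had 0.325 and 0.196 CPM with recruitment, 5.94 and 7.49 CPM in LTR5HS Sa, and 6.95 and 8.01 CPM in nontarget Sp, with the nearest locus 4080 kb away. The groups were wide apart (log2 fold change −4.72 ± 0.32, edgeR adjusted p = 5e-05). In all, 25 lower genes lay beyond 1 Mb, among them TTLL1, ZNF397, ALPL and TUBB4A, a neuronal tubulin. Some of the 25 had a match of a single guide nearer by, at 1.32 kb for PGBD2, 3.27 kb for C16orf58, 33.3 kb for LINC01356, 56.4 kb for CRYM and 77.3 kb for AKR1E2. Partial matches of the guides were not searched.

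The 6 dCas9-VPR libraries of the series, in which an activator was sent to the same sites with the same control arrays, allow a test of whether the effect of recruitment differed by fusion. That interaction passed the threshold in 3505 of 16673 genes (21.0%). It passed in 280 of the 301 genes lower with dCas9-KRAB (93.0%) and in 68 of the 129 higher genes (52.7%). The genes were chosen by the dCas9-KRAB values, which also enter the interaction, so these counts describe the chosen genes. The dCas9-VPR contrast used separate libraries. In it 222 of the 299 lower genes tested were higher and 12 lower, with a median log2 fold change of 1.35. Of 95 testable higher genes 23 were higher and 17 lower, with a median of 0.02. The share of all 16271 genes tested with dCas9-VPR that passed in either direction was not counted, so these counts have no background beside them. Whether they exceed or fall short of the share of all genes cannot be read from them. The study reported more genes changed by dCas9-VPR alone than by dCas9-KRAB alone.

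The dCas9-VPR response of the lower genes was also set out by the position of the locus. Where the locus lay upstream within 20 kb, 84.4% of 77 lower genes were higher with dCas9-VPR and the median log2 fold change was 1.72. Where it lay in the gene's own body within the same distance, 57.1% of 42 were higher and the median was 0.70. Of all genes tested at that distance, lower or not with dCas9-KRAB, 77.6% of 165 and 59.7% of 72 were higher with dCas9-VPR. At 20 to 50 kb the order of the shares was the other way, with 81.5% of 27 for an upstream locus and 88.9% of 18 for a locus in the gene. All genes tested there had 58.3% of 180 and 67.6% of 37. Among all genes within 50 kb, called or not, the dCas9-VPR medians were 0.90 for an upstream locus and 0.86 for a locus in the gene, and the dCas9-KRAB medians −0.44 and −1.10. The difference between positions was not tested.

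Genes with an intronic locus varied in this. With dCas9-VPR, WDHD1 had 57.9 and 68.2 CPM with recruitment, 59.2 and 49.3 CPM in LTR5HS Sa, and 59.2 and 47.1 CPM in nontarget Sp, a log2 difference of 0.23 that did not pass the test. SDHC, BARD1 and MRPL18 differed by 0.18, −0.08 and −0.23, none past the threshold, while CEBPZ was lower with dCas9-VPR as well, with a log2 fold change of −0.34. PROM1, SLC25A16, F11R and ARMT1, whose locus lay in the gene as well, were higher with dCas9-VPR, by 2.00, 1.21, 0.71 and 0.43 on the log2 scale. VSIG10, with the locus before its canonical start site but within its annotated span, had 536 and 555 CPM with dCas9-VPR recruitment against 29.4 to 34.2 CPM in its controls. RAB15, a small GTPase with the locus upstream of the gene, had 1020 and 1090 CPM against 36.1 to 50.4 CPM there, and 11.1 and 13.4 CPM with dCas9-KRAB against 56.5 to 73.3 CPM. Control levels differed between the lines of the 2 fusions for some of these genes, such as WDHD1, and fusion and line cannot be told apart.

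**Figure D5:**
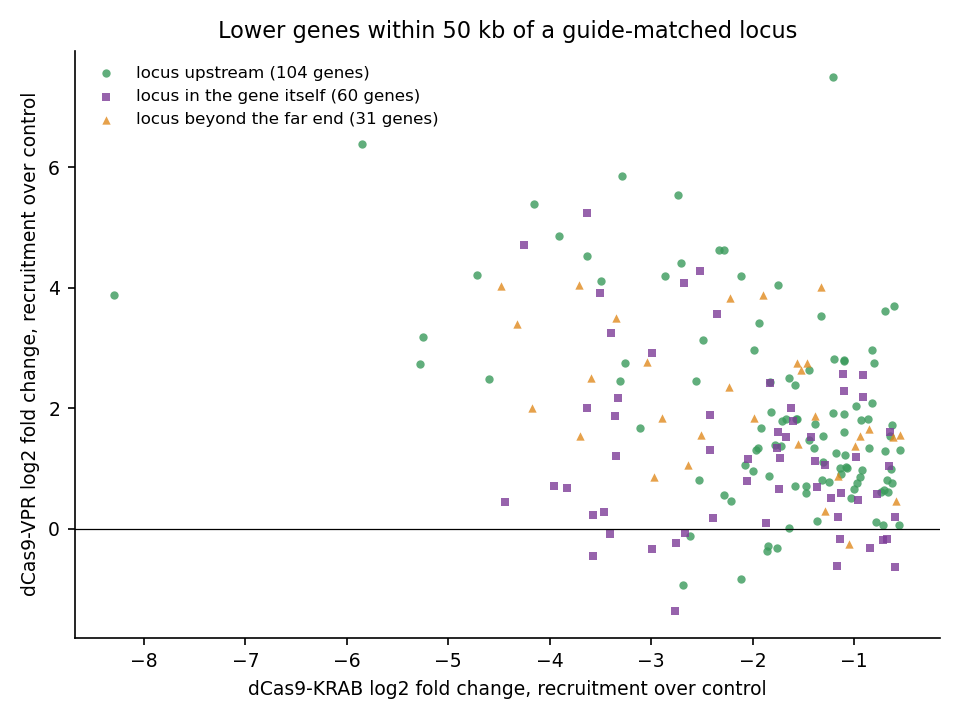
Log2 fold change of recruitment over control with dCas9-KRAB (horizontal axis) and with dCas9-VPR (vertical axis) for the 195 lower genes within 50 kb of a guide-matched locus, by the place of the locus. Most points lie above 0 on the vertical axis, with a median of 1.08 for the genes with the locus in their own body (squares) and 1.64 for those with it upstream (circles).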

How the data were processed

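Per the labels, the authors made raw counts per gene from polyadenylated RNA with CASAVA 1.8, cutadapt 1.8.1, HISAT2 2.1.0 and featureCounts 1.4.6-p2 on hg38, and these counts were deposited without normalization. Neither the annotation nor the strand setting of the counting is given in the sources used here. Genes were filtered with filterByExpr, scaled by TMM and tested with edgeR 4.0.16 (R 4.3.3) by the quasi-likelihood test, 2 recruitment against 4 control libraries, with Benjamini-Hochberg adjustment and a threshold of 0.05. Standard errors are the absolute log2 fold change divided by the square root of F. DESeq2 1.42.0, which the study used, served as an alternative. CPM were computed from library totals of 13601701 to 69797411 counts scaled by the TMM factors.

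Gene positions and the start site of the canonical transcript were taken from GENCODE 44, with older symbols matched through RefSeq. Guides were matched exactly over 16 bases with NGG on both strands, and matches within 1 kb were joined. The script was tested on simulated data.

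Same-numbered libraries deviated together (correlations of replicate differences between arrays of 0.201, 0.488 and 0.326 over 15520 genes), so the numbers were taken to pair the libraries. With a replicate block 322 genes were lower and 185 higher.

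The genes named were the 12 lower and 8 higher genes with the smallest adjusted p, the 6 largest changes in each direction at 1 CPM or more, called members of 31 lists and 45 symbol families, the genes chosen by the study, and the 5 longest runs. Other genes named, such as neighbours of a run, higher genes nearest to a locus and lower genes far from one, were chosen after their values were seen. The comparison, its lists and this rule were chosen with earlier results of these data known. Symbols that read as dates (28) could not be named.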

Additional observations from a re-analysis of the deposited data

Results flagged for a closer look

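Total counts of the second nontarget Sp library (69.8 in units of 1e6 counts) stood far from the other 3 control libraries. The other flags of this kind all fell on the first LTR5HS Sa library, which was the lowest of the 4 controls for WDHD1 (179 CPM) and CEBPZ (302 CPM) and the highest for GALNT10 (45.1 CPM), AKR1B10 (6.1 CPM) and DNAH12 (0.385 CPM). In each case it lay on the side of the recruitment libraries. Control values of 42 genes were examined in this way, and chance marks about 1 in 20.

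The effect of recruitment differed between dCas9-KRAB and dCas9-VPR, by an interaction term in edgeR's test, for 7 of the 8 higher genes with the smallest adjusted p. These 8 were chosen by the dCas9-KRAB values, which also enter the interaction, so the count describes the chosen genes only. The difference of the 2 log2 fold changes, dCas9-KRAB minus dCas9-VPR, was 1.92 for GALNT10, 6.30 for AKR1B10 (adjusted p = 0.00433), 2.21 for UNC80, 2.67 for USP43, 2.72 for STARD13, 2.28 for PXYLP1 and 2.21 for IGIP. For ADGRB3 it was 0.24, with an adjusted p of 0.884. AKR1B10 was too low to be tested in the dCas9-VPR contrast. It had 0.23 and 0.0559 CPM there with recruitment and 0.0545 to 2.11 CPM in control, the highest in the first nontarget Sp library, so the size of its difference is uncertain.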

How the results depend on the processing

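Counts of lower (301) and higher (129) genes became 176 and 60 at a threshold of 0.01. Higher genes numbered 246 with DESeq2's Wald test (lower 450), 80 with at least 10 counts in every library and 218 with nontarget Sp alone as control. Leaving out single libraries gave 152 to 312 lower and 61 to 129 higher genes. The share of lower genes within 50 kb of a locus, 67.0%, was 55.3% for loci of at least 4 guides, 52.8% with DESeq2's Wald test and 64.4 to 79.7% without single libraries. The 41 runs of lower genes became 63 with that test and 24 to 42 without single libraries. Of the listed genes 6 were higher, 13 with DESeq2's Wald test and 2 without the second nontarget library, the one library left out for this count. With the replicate block, which follows the pairing by replicate number, 10 listed genes were higher, and the 140 named genes all kept their calls. No result reversed. Of the 140 named genes 76 stayed past the threshold wherever they were tested. The cause of these differences was not tested.

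The shallower libraries limit what can be seen of genes near their floor of 0.225 CPM or less. With 2 recruitment libraries from 1 line, line and recruitment cannot be told apart.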
